A study of Mus musculus with 12 samples.

Results

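Inhibitory neurons of the cortex fall into a class that makes parvalbumin and several classes that do not. Described here are 9 genes that mark the classes without parvalbumin. Sst, Cort, Vip, Npy and Cck encode neuropeptides, Lamp5 a membrane protein, Calb2 the calcium-binding protein calretinin, and Reln and Ndnf secreted proteins. They were chosen by symbol, as somatostatin, VIP, CCK, neurogliaform and calretinin interneuron markers, with earlier results of these data known. All 9 were among the 24411 gene symbols of the deposited count table, and all 9 were among the 15199 with enough counts to be tested.

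The libraries came from the medial prefrontal cortex of adult female C57BL/6J mice, stated to be 8 to 12 weeks old. WT mice were bought from a breeder, and mice lacking Cav3.1, the T-type calcium channel encoded by Cacna1g, came from a resource centre, so that genotype and colony cannot be told apart. Each genotype had 3 libraries from mice without chronic stress and 3 from mice given daily forced swim or tail suspension tests over 5 days. Which of these tests a mouse had, and whether the 3 libraries of a group came from separate mice, is not given in the sources used here, so p-values measure the spread between libraries, which may be technical. Unstressed WT serves as the control of both the stress comparison in WT and the genotype comparison without stress.

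Interneurons that make somatostatin arise in the medial ganglionic eminence under the transcription factor Lhx6, and many of them inhibit the dendrites of pyramidal cells. Those that make VIP, and those marked by Lamp5, Ndnf or Reln (neurogliaform and other layer 1 cells), arise largely in the caudal ganglionic eminence or nearby. VIP cells mainly inhibit other interneurons, and neurogliaform cells release GABA diffusely. Several of the 9 genes are also used outside interneurons: cortical pyramidal cells make much Cck, and cells of the olfactory bulb make calretinin and reelin.

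The labels were checked first. Levels are given in CPM, the count of a gene relative to the scaled total of its library. Cacna1g lay between 109.4 and 144.1 CPM in the 6 WT libraries and between 54.6 and 66.0 CPM in the 6 KO libraries. Slc17a7, the vesicular glutamate transporter of cortical pyramidal cells, was at 1206 to 2066 CPM in all 12 libraries. It was lowest in unstressed WT libraries 1 and 2, at 1206 and 1384 CPM. A list of 15 cortical excitatory markers was also lowest there, at a sum of 4365 and 4973 CPM against 5262 to 6997 CPM elsewhere. Unstressed WT libraries 1 and 2 stood apart. A list of 16 olfactory bulb markers, 15 of them in the count table, summed to 1404 and 1349 CPM there, against 54.5 to 223 CPM in the other 10 libraries. Cdhr1, a mitral and tufted cell gene, had 422.9 and 426.8 CPM there, against 7.61 to 59.5 CPM. Of this list, 14 markers could be tested. Uncx had too few counts, and Lbhd2 was not in the table. A list of 12 meningeal markers summed to 319 and 391 CPM in the same libraries, against 52.3 to 144 CPM in the rest. Stressed KO library 1 stood apart in a list of 15 genes of striatal projection neurons, which summed to 1048 CPM there and to 343 to 390 CPM elsewhere, and it held Six3 at 8.15 CPM against at most 0.241 CPM. All 12 libraries enter 1 fit and share its estimate of the spread, so these 3 also bear on the errors of comparisons whose groups do not hold them. Calls that rest on them are also given without them, by gene for the 9 and as counts or medians for gene lists other than the bulb and meningeal markers.

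Sst and Cort encode a pair of related peptides, somatostatin and cortistatin, that act on the same receptors. The stretch of coding sequence that gives the mature end of each peptide is shown because the pair of genes is paired in the results that follow and this is the part their products share. In the GENCODE transcripts, coding bases 307 to 348 of 348 in Sst and 283 to 324 of 327 in Cort were the same at 31 of 42 positions (73.8%). The next best ungapped placement of these Sst bases along Cort matched at 18. Capitals mark the bases that are the same in both.
Sst: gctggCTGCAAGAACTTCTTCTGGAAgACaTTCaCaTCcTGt
Cort: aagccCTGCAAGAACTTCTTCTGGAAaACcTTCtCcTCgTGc
The estimated counts of both genes, and of the other 7, were whole numbers in all 12 libraries, so that no read was shared out in fractions between them and other genes.

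The promoter of Sst is a textbook case of the cyclic AMP response element, the binding site of CREB, which couples neuronal activity to transcription. Promoters were read as the 250 bases before each start (RefSeq, GRCm38.p6). The full element, TGACGTCA, begins at position -48 from the start of Sst (minus strand, within chr16:23890845-23891094), where GENCODE places the 5′ end of the gene further upstream, at 23890958. It is shown in capitals within 30 bases.
Sst: ctccttggcTGACGTCAgagagagagttta
Of the 9 genes, 7 had an entry among the RefSeq promoters; Calb2 and Ndnf did not. The full element was found in Sst alone of these 7, and in 508 of 32851 promoter windows of this length (1.55%). The shorter core TGACG, searched on both strands and also part of the full element, was found once each in Vip, Cck and Cort. It was found in 17.8% of all windows. The 30 bases around these single cores are given with the core in capitals, which reads CGTCA where it lies on the other strand. They begin at -79 in Vip (plus strand, within chr10:5638968-5639217), -47 in Cck (minus strand, within chr9:121495695-121495944) and -18 in Cort (minus strand, within chr4:149126764-149127013).
Vip: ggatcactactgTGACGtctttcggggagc
Cck: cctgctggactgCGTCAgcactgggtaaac
Cort: ctccggcttgtgCGTCAccgcgtgagtgtg
Neither motif was found in the windows of Npy, Lamp5 (which has a pair of starts) or Reln. These matches describe the sequence only; whether any factor binds there was not measured.

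**Figure D1:**
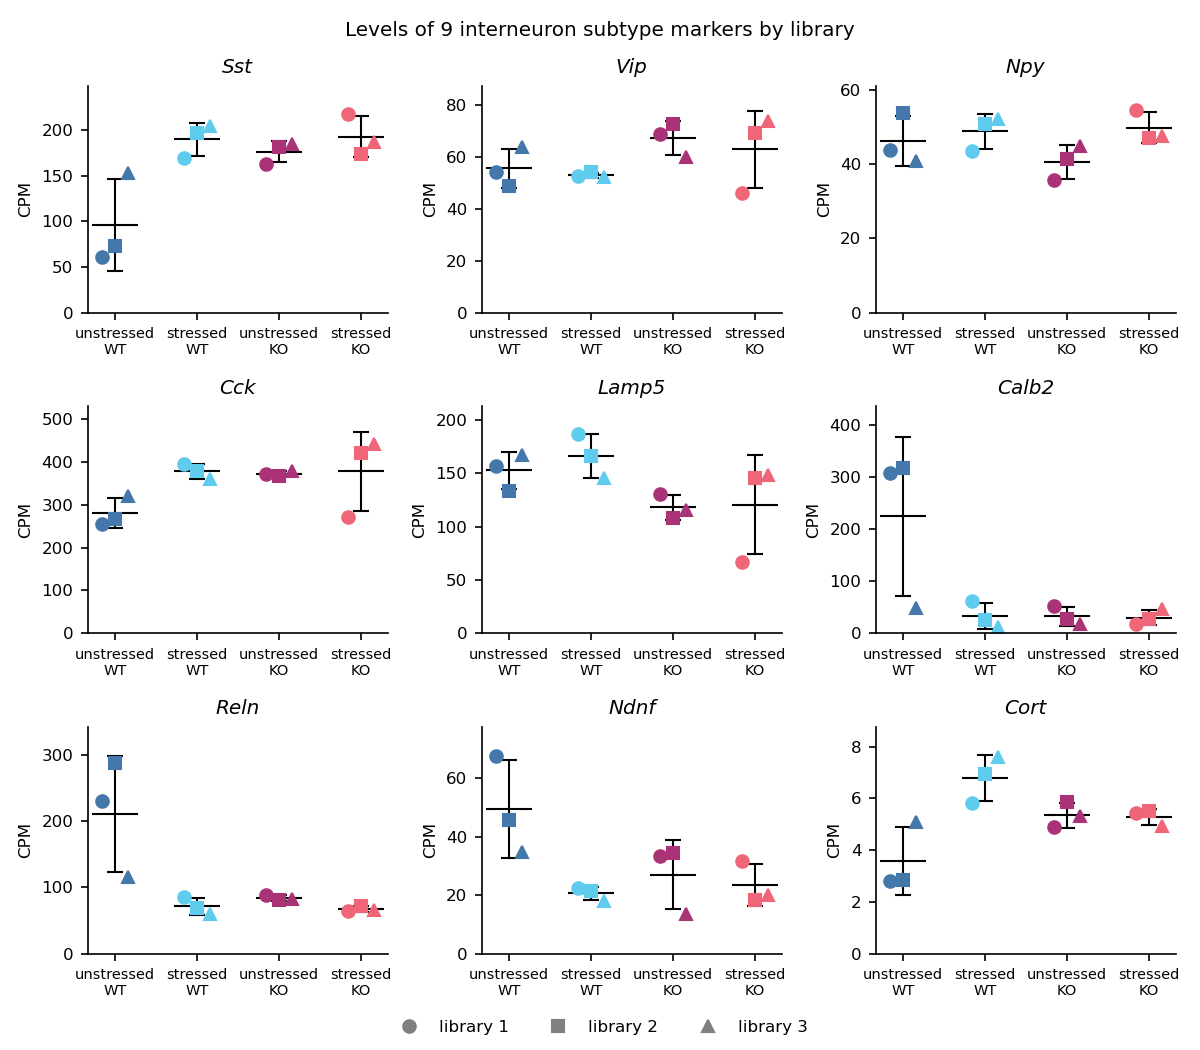
CPM of each of the 9 genes (y axis, from 0) in the 4 groups (x axis), with 1 point per library, the group mean as a long bar and the SD as error bars (3 libraries a group). Unstressed WT libraries 1 and 2 lie apart from the other 10 for Sst, Cort, Calb2 and Reln. Stressed KO library 1 is the lowest of its group for Vip, Cck, Lamp5, Calb2 and Reln.

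Sst, on chromosome 16 (GRCm38, 23889573 to 23890958, minus strand), was at 60.6, 72.9 and 153.4 CPM in unstressed WT libraries 1 to 3. It was at 169.2, 196.5 and 203.9 CPM in stressed WT, at 162.7, 181.7 and 184.6 CPM in unstressed KO and at 217.0, 173.2 and 186.8 CPM in stressed KO. The first pair of unstressed WT libraries were the lowest of all 12, and the third lay below the other 9 as well. Sst was higher after stress in WT by 0.99 ± 0.26 on the log2 scale (SE, adjusted p = 0.0251 in edgeR's quasi-likelihood test), a 1.99-fold difference with groups that did not overlap. Without stress it was higher in KO than in WT by 0.88 ± 0.26 (adjusted p = 0.0337). In KO mice the difference with stress was 0.13 ± 0.26, with a 95% interval from -0.44 to 0.69. Stressed KO and stressed WT differed by 0.02 ± 0.26. Without unstressed WT libraries 1 and 2, the difference with stress in WT was 0.31 ± 0.15 (adjusted p = 0.424) and that of KO against WT without stress 0.20 ± 0.15 (adjusted p = 0.551).

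Cort, on chromosome 4 (149125034 to 149126763, minus strand), is made by a subset of somatostatin cells and of parvalbumin cells. Its levels were low: 2.79, 2.85 and 5.10 CPM in unstressed WT, 5.83, 6.94 and 7.61 CPM in stressed WT, 4.88, 5.84 and 5.33 CPM in unstressed KO, and 5.43, 5.50 and 4.93 CPM in stressed KO. The lowest values were again those of unstressed WT libraries 1 and 2, and the highest 2 were in stressed WT. Cort was higher after stress in WT by 0.92 ± 0.21 (adjusted p = 0.0170), with no overlap of the groups. Without those 2 libraries the difference was 0.41 ± 0.20 (adjusted p = 0.418). KO against WT without stress gave 0.58 ± 0.21 (adjusted p = 0.0694), and 0.07 ± 0.20 without that pair. KO against WT after stress gave -0.36 ± 0.21 (adjusted p = 0.510), in which all 3 KO libraries lay below all 3 WT libraries, and -0.38 ± 0.25 without stressed KO library 1.

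Sst kept close to Lhx6, the transcription factor of its lineage, in every library. The count of Sst per count of Lhx6 lay between 8.11 and 10.6 over the 12 libraries, while the CPM of Sst itself spanned 3.58-fold. In unstressed WT libraries 1 and 2 this ratio was 8.50 and 8.81, inside the range of the others. Its highest value was in stressed KO library 1. Outside unstressed WT libraries 1 and 2, Sst itself lay between 153.4 and 217.0 CPM, so that most of its span rests on that pair. The count of Sst per count of Pvalb, the parvalbumin gene, was 7.43 and 7.75 in the pair, also inside the range of the others. Of 13811 genes compared on their centred log2 CPM over 12 libraries, the 3 nearest to Sst were Lhx6 (root mean square difference 0.10), Crym (0.11) and 3110035E14Rik (0.12). Not all listed genes of the lineage were low in unstressed WT libraries 1 and 2. Satb1 was lowest there, at 45.5 and 60.8 CPM against 81.1 CPM or more. Maf had 17.6 and 20.4 CPM there, against 11.6 to 18.8 CPM elsewhere. Elfn1 had 42.1 and 38.5 CPM there, against 35.9 to 43.2 CPM elsewhere. Cort followed Sst less closely, with 2.50 to 4.60 counts per 100 counts of Sst. Its ratio to Sst was highest in unstressed WT libraries 1 and 2, at 4.60 and 3.91, and was at 2.50 to 3.21 in the 6 KO libraries against 3.33 to 4.60 in the 6 WT libraries. These ratios rest on 77 to 223 estimated counts of Cort a library and carry the counting error of such counts. The nearest values of the genotypes, 3.21 in unstressed KO library 2 and 3.33 in unstressed WT library 3, rest on 128 and 154 counts of Cort. The ratio of the 2 genes was not tested. Nearest to Cort were Gm2506 (0.11), Ephb1 (0.12) and Cadps2 (0.13).

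**Figure D2:**
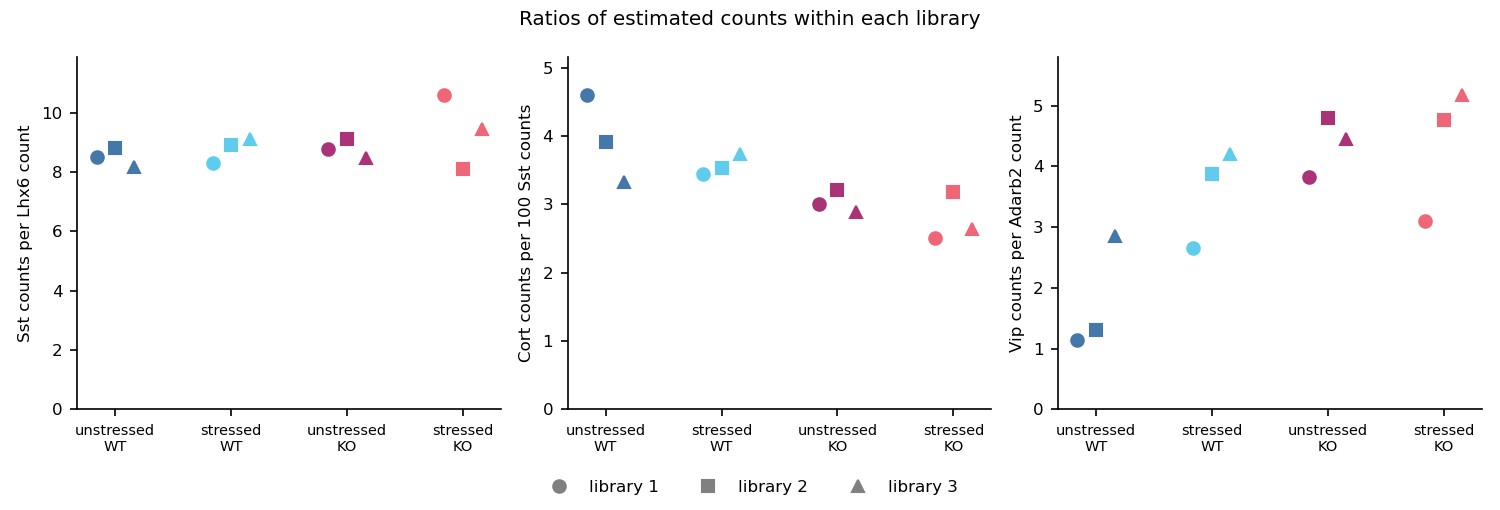
Ratios of estimated counts within each library (y axes, from 0): Sst per Lhx6, Cort per 100 Sst, and Vip per Adarb2, by group (x axis), 1 point per library. Sst per Lhx6 stays between 8.11 and 10.6, Cort per Sst is lower in the 6 KO libraries than in the 6 WT libraries, and Vip per Adarb2 is lowest in unstressed WT libraries 1 and 2.

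Vip, on chromosome 10 (5639218 to 5647617, plus strand), encodes vasoactive intestinal peptide. It was at 54.2, 48.7 and 63.7 CPM in unstressed WT, 52.4, 54.0 and 52.1 CPM in stressed WT, 68.9, 72.7 and 60.0 CPM in unstressed KO, and 46.0, 69.0 and 73.6 CPM in stressed KO. The groups overlapped in all 4 comparisons, and the lowest library was stressed KO library 1. No comparison of Vip passed the threshold. The difference with stress was -0.07 ± 0.15 in WT (95% interval -0.41 to 0.26) and -0.10 ± 0.15 in KO (-0.44 to 0.23). KO exceeded WT by 0.28 ± 0.15 without stress (adjusted p = 0.203) and by 0.25 ± 0.15 after stress (adjusted p = 0.538). Without stressed KO library 1 the latter was 0.43 ± 0.11 (adjusted p = 0.180), and the difference with stress in KO was 0.08 ± 0.11. Without unstressed WT libraries 1 and 2, KO and WT without stress differed by 0.08 ± 0.20.

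Adarb2, a gene of the caudal lineage that VIP cells belong to, did not run with Vip. Counts of Vip per count of Adarb2 were 1.14 and 1.31 in unstressed WT libraries 1 and 2 and 2.66 to 5.18 in the other 10. Adarb2 itself was at 47.8 and 37.3 CPM in that pair and at 12.4 to 22.4 CPM elsewhere. Nearest to Vip were Pak6 (0.12), Cryz (0.13) and Fam101b (0.14).

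Npy, on chromosome 6 (49822710 to 49829507, plus strand), encodes neuropeptide Y, made by neurogliaform cells and by some somatostatin cells. It varied least of the 9 genes, with an SD of 0.18 in log2 CPM over the 12 libraries. Its values were 43.9, 53.6 and 40.9 CPM in unstressed WT, 43.3, 50.8 and 52.1 CPM in stressed WT, 35.7, 41.3 and 44.7 CPM in unstressed KO, and 54.5, 46.9 and 47.6 CPM in stressed KO. In KO, all 3 stressed libraries lay above all 3 unstressed ones. That difference, 0.29 ± 0.12, did not pass the adjusted threshold (unadjusted p = 0.0305, adjusted p = 0.510 in edgeR), and was 0.22 ± 0.13 without stressed KO library 1. The other differences were 0.08 ± 0.12 for stress in WT, -0.19 ± 0.12 for KO against WT without stress and 0.03 ± 0.12 after stress, all with overlapping groups. Npy was nearest to Snx33 (0.10), Gtf3c5 (0.12) and Zbtb21 (0.12).

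Cck, on chromosome 9 (121489824 to 121495694, minus strand), encodes cholecystokinin. It was at 254.2, 267.5 and 320.1 CPM in unstressed WT, 396.2, 378.3 and 361.3 CPM in stressed WT, 372.7, 367.3 and 378.4 CPM in unstressed KO, and 271.9, 421.1 and 441.7 CPM in stressed KO. All unstressed WT libraries lay below all libraries of stressed WT and of unstressed KO. Neither difference passed the threshold with edgeR: 0.43 ± 0.15 for stress in WT (adjusted p = 0.0589) and 0.41 ± 0.15 for KO against WT without stress (adjusted p = 0.0679). Both passed with DESeq2 (adjusted p = 0.0279 and 0.0373), and both passed with edgeR when stressed KO library 1 was left out of the shared spread (adjusted p = 0.0151 and 0.0154). Unstressed WT libraries 1 and 2 were the lowest for Cck, and without them the differences were 0.24 ± 0.21 (adjusted p = 0.648) and 0.22 ± 0.21 (adjusted p = 0.651). The stressed KO group spread widely, because library 1 was at 271.9 CPM. With it the difference with stress in KO was 0.02 ± 0.15, and without it 0.21 ± 0.10 (adjusted p = 0.574). The genes nearest to Cck were Tspan17 (0.06), Dkkl1 (0.08) and Arhgef25 (0.08). Among the 9 genes themselves the closest pair was Vip and Cck (0.20), followed by Sst and Cort (0.24). This measure is also small for genes that vary little. The SD in log2 CPM over 12 libraries was 0.23 for Vip and 0.26 for Cck, against 0.58 for Sst and 0.43 for Cort.

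Lamp5, on chromosome 2 (136052239 to 136069917, plus strand), encodes a lysosome-associated membrane protein and marks neurogliaform cells. It was at 157.0, 133.8 and 167.3 CPM in unstressed WT, 187.4, 166.0 and 145.8 CPM in stressed WT, 130.7, 107.9 and 115.3 CPM in unstressed KO, and 66.7, 145.9 and 148.4 CPM in stressed KO. Without stress, all 3 KO libraries lay below all 3 WT libraries, and unstressed WT libraries 1 and 2 did not stand apart. The difference of KO against WT was -0.37 ± 0.23 without stress (adjusted p = 0.260) and -0.47 ± 0.24 after stress (adjusted p = 0.429). Neither passed. The first passed when stressed KO library 1 was left out of the shared spread (-0.37 ± 0.11, adjusted p = 0.0385), and was -0.50 ± 0.32 (adjusted p = 0.490) without unstressed WT libraries 1 and 2. Stressed KO library 1, the one with striatal genes, held the lowest value, and without it the difference after stress was -0.18 ± 0.13 (adjusted p = 0.661). Stress gave 0.12 ± 0.23 in WT. In KO it gave 0.03 ± 0.24, and without that library 0.32 ± 0.13 (adjusted p = 0.513). Lamp5 was nearest to Npnt (0.13), Vasn (0.16) and Wnt10a (0.16).

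Calb2, on chromosome 8 (110137502 to 110168210, minus strand), varied most. In unstressed WT its values were 306.9, 317.4 and 47.4 CPM. It was at 60.6, 24.3 and 12.4 CPM in stressed WT, 51.4, 26.9 and 17.0 CPM in unstressed KO, and 16.5, 27.0 and 45.2 CPM in stressed KO. Unstressed WT libraries 1 and 2 lay far above the rest, while the third lay inside the range of the other groups, so that the groups overlapped. The highest library exceeded the lowest 25.7-fold, and the SD over 12 libraries, 1.51 in log2 CPM, was above that of 99.4% of all genes tested. Calb2 was lower after stress in WT, with a log2 difference of -2.79 ± 0.73 (adjusted p = 0.0242) and lower in unstressed KO than in unstressed WT, with a difference of -2.81 ± 0.73 (adjusted p = 0.0220). Without the 2 high libraries these were -0.56 ± 0.73 (adjusted p = 0.782) and -0.57 ± 0.73 (adjusted p = 0.752). The differences within the other groups were -0.13 ± 0.71 for stress in KO and -0.15 ± 0.71 for KO against WT after stress. The genes nearest to Calb2 were Lgr5 (0.27), Nmb (0.28), which is one of the listed olfactory bulb markers, and Shisa8 (0.34).

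Reln, on chromosome 5 (21884454 to 22344702, minus strand), encodes reelin, a large secreted protein that guides the layering of the cortex in development and is made by layer 1 and somatostatin interneurons in the adult. It was at 230.2, 288.0 and 115.4 CPM in unstressed WT, 85.3, 68.1 and 60.2 CPM in stressed WT, 88.2, 80.6 and 82.9 CPM in unstressed KO, and 63.7, 71.7 and 65.3 CPM in stressed KO. Unlike Calb2, all 3 unstressed WT libraries lay above the other 9. Reln was lower after stress in WT, with a log2 difference of -1.57 ± 0.25 (adjusted p = 0.0114), the smallest adjusted p of the 9 genes in that comparison. It was lower in unstressed KO than in unstressed WT, with a difference of -1.33 ± 0.25 (adjusted p = 0.00991). Without unstressed WT libraries 1 and 2 these were -0.70 ± 0.15 (adjusted p = 0.244) and -0.46 ± 0.15 (adjusted p = 0.230), the same in sign and not past the threshold, with 1 library left in that group. In KO, the 3 stressed libraries lay below the 3 unstressed ones, with a difference of -0.33 ± 0.25 (adjusted p = 0.712). After stress KO and WT differed by -0.09 ± 0.25. The genes nearest to Reln were Wnt5a (0.15), Fat1 (0.19) and Slc6a11 (0.20).

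Ndnf, on chromosome 6 (65671590 to 65712326, plus strand), encodes a secreted neurotrophic factor and marks layer 1 neurogliaform cells. It was at 67.8, 45.8 and 34.7 CPM in unstressed WT, 22.3, 21.5 and 18.1 CPM in stressed WT, 33.3, 34.3 and 13.5 CPM in unstressed KO, and 31.5, 18.4 and 20.1 CPM in stressed KO. All 3 unstressed WT libraries lay above the other 9, the third by little. Ndnf was lower after stress in WT, with a log2 difference of -1.26 ± 0.33 (adjusted p = 0.0243), and the difference was -0.75 ± 0.39 (adjusted p = 0.456) without unstressed WT libraries 1 and 2. KO against WT without stress gave -0.87 ± 0.33 (adjusted p = 0.0732), and -0.36 ± 0.40 without that pair. The other differences were -0.21 ± 0.33 for stress in KO and 0.19 ± 0.33 for KO against WT after stress. Ndnf was nearest to Fam126a (0.27) and Lhfpl3 (0.28). Reln and Ndnf differed from each other by 0.46, less than either did from Calb2 (0.85 and 1.05).

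To rank the 9 genes, levels were divided by length, taken as all exon bases of a gene merged over its annotated transcripts. This can exceed the length of any single transcript, which lowers the value. Reln had 23.7 kilobases over 15 transcripts and Vip 3.4 over 2. The order depends on this choice, and no other length was tried. In CPM per kilobase of exon (GENCODE, mean ± SD of 3 libraries), Cck and Sst led every group, at 286 ± 4.23 and 245 ± 16.5 in unstressed KO. Npy followed at 71.7 ± 8.03, then Lamp5 at 40.2 ± 3.97, Vip at 19.8 ± 1.92, Calb2 at 18.2 ± 10.1, Cort at 7.90 ± 0.710, Reln at 3.53 ± 0.164 and Ndnf at 2.67 ± 1.16. In that group the only neighbours in this order whose libraries overlapped were Vip and Calb2. The order of the other groups was the same but for Calb2, Vip, Cort and Reln. In unstressed WT, Calb2 came next after Cck and Sst, at 128 ± 87.7, and its libraries overlapped those of Sst above it and of Npy below it. Reln (8.90 ± 3.70) there came before Cort (5.29 ± 1.95), also with overlap. Cck and Sst overlapped in the 3 groups other than unstressed KO.

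In WT, the stressed libraries held on average more of the somatostatin pair and less of the calretinin, reelin and Ndnf transcripts than the unstressed ones. Of the 9 genes, 5 passed the threshold, beside 21.9% of all genes tested. Sst and Cort were higher (9.71% of all genes were called higher) and Reln, Calb2 and Ndnf were lower (12.1% were called lower). Vip, Npy, Cck and Lamp5 did not pass. Groups did not overlap for 5 of the 9 (Sst, Cort, Cck, Reln and Ndnf), beside 36.6% of all genes. The median log2 difference was 0.08 over the 9 and 0.0023 over all genes tested. All 14 olfactory bulb markers that could be tested were lower in this comparison, with a median of -3.41, as were 11 of 12 meningeal markers (median -1.87). Oligodendrocyte markers were higher for 9 of 14 (median 0.85, and 0.83 without unstressed WT libraries 1 and 2). The part of these cell types in the values of the 9 genes was not tested. With the bulb score as a covariate, or without unstressed WT libraries 1 and 2, none of the 9 passed in edgeR and 0 of all genes did, while 2 and 1 of the 9 had an unadjusted p under 0.05. None of the 9 passed either when only the 6 libraries of the groups compared were fitted, where 1 of all genes passed, 6 of the 9 had an unadjusted p under 0.05 and Reln came nearest (adjusted p = 0.0550). Of the 9, 1 passed without unstressed WT library 1 (Reln), 0 without library 2 and 6 without library 3. Leaving out stressed WT library 1, 2 or 3 gave 4, 0 and 2. In bulk tissue, fewer cells of a type and less RNA per cell cannot be told apart.

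Without stress, Sst was higher and Calb2 and Reln were lower, on average, in the KO than in the WT libraries. These 3 of the 9 genes passed, beside 23.2% of all genes tested (11.2% called higher and 12.1% called lower). Cck, Ndnf and Cort had adjusted p of 0.0679 to 0.0732, and Vip, Npy and Lamp5 did not pass either. Groups did not overlap for 5 of the 9 (Sst, Cck, Lamp5, Reln and Ndnf), beside 36.5% of all genes. The unstressed WT libraries are the same as in the comparison of stress in WT, so the values of the 2 comparisons are not independent. The bulb markers were lower here for 13 of 14 tested (median -3.28), and the meningeal markers for 9 of 12 (median -1.63). None of the 9 passed without unstressed WT libraries 1 and 2, or with the bulb score as a covariate, and 18 and 14 of all genes did. With only the groups compared in the fit, none of the 9 passed and 18 of all genes did, 5 of the 9 had an unadjusted p under 0.05, and Reln had an adjusted p of 0.0583. When stressed KO library 1 was left out of the shared spread, 5 passed, with Cck and Lamp5 added. Leaving out unstressed WT library 1, 2 or 3 gave 1, 1 and 6 of the 9, and leaving out unstressed KO library 1, 2 or 3 gave 2, 1 and 1. Reln passed in all 6 of these.

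**Figure D3:**
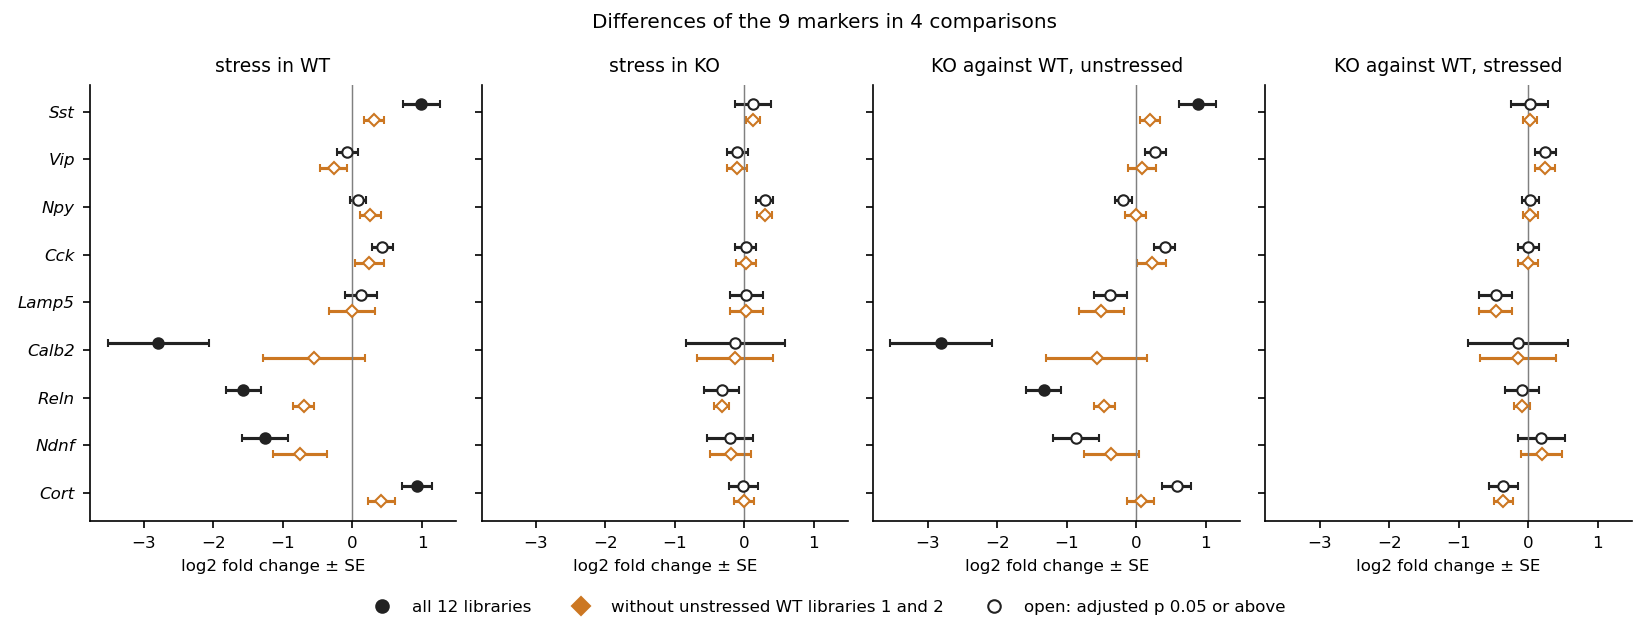
Log2 fold change ± SE (x axis) of each of the 9 genes (y axis) in 4 comparisons, from the edgeR fit of all 12 libraries (circles) and of the 10 libraries without unstressed WT libraries 1 and 2 (diamonds). Filled symbols have an adjusted p under 0.05: there are 5 for stress in WT and 3 for KO against WT without stress, all of them circles.

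In KO mice, no stress difference of the 9 genes passed with edgeR or with DESeq2, and 1 (Npy) had an unadjusted p under 0.05. Over all genes, edgeR called 3 (0.0197%), and 1398 had an unadjusted p under 0.05. Npy was higher and Reln lower without overlap, 2 of the 9 beside 16.9% of all genes. The intervals of the other differences were wide for Calb2 (95% interval -1.69 to 1.43) and narrower for Cck (-0.31 to 0.35) and Vip. Between stressed KO and stressed WT mice, none of the 9 passed with either tool and none had an unadjusted p under 0.05. Over all genes edgeR called 38 (0.250%), with 1973 at an unadjusted p under 0.05. Only Cort had groups without overlap, 1 of the 9 beside 22.1% of all genes. Unstressed WT libraries 1 and 2 are in no group of these comparisons but enter the shared spread. When just the 6 libraries compared were fitted, the SE of the stress difference in KO fell from 0.25 to 0.08 for Reln, from 0.26 to 0.10 for Sst and from 0.71 to 0.42 for Calb2. None of the 9 passed there either (adjusted p = 0.505 for Reln, with a 95% interval of -0.50 to -0.15).

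The stress difference in KO minus that in WT, the interaction, passed for 0 of the 9 genes and for 0% of all genes with edgeR, while 4330 of all genes had an unadjusted p under 0.05. So did 5 of the 9. Reln had an interaction of 1.24 ± 0.35 (adjusted p = 0.0679), Cort of -0.94 ± 0.30 (adjusted p = 0.0838), Calb2 of 2.66 ± 1.01 (adjusted p = 0.116), Sst of -0.86 ± 0.37 (adjusted p = 0.153) and Ndnf of 1.06 ± 0.47 (adjusted p = 0.163). DESeq2 called Cort and Reln, beside 12.7% of all genes. Without unstressed WT libraries 1 and 2 these 5 values were 0.37, -0.42, 0.42, -0.18 and 0.56.

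**Figure D4:**
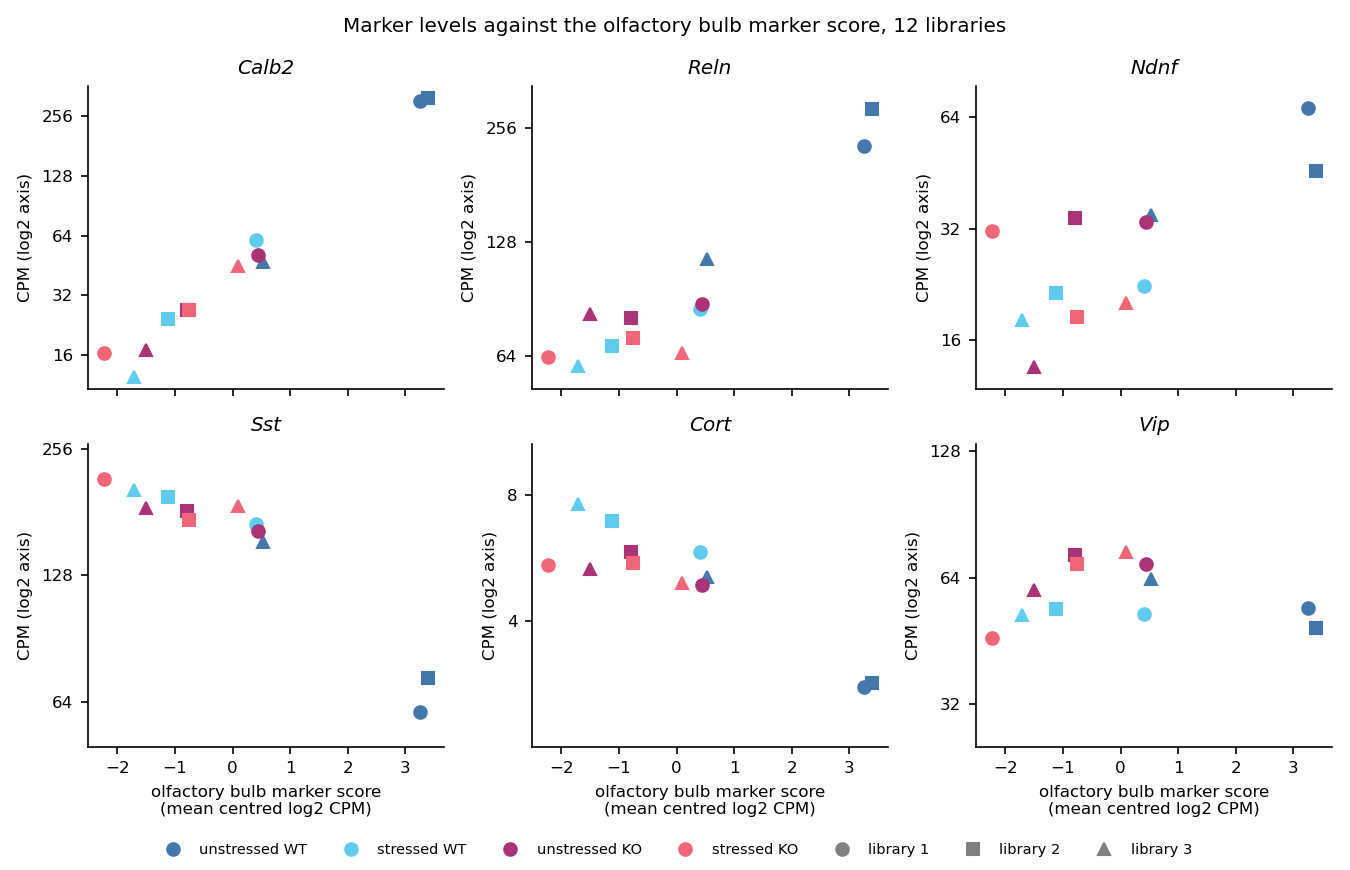
CPM of 6 of the 9 genes (y axis, log2 scale) against the olfactory bulb score, the mean centred log2 CPM of the 14 tested bulb markers (x axis), 1 point per library. Unstressed WT libraries 1 and 2 sit at scores of 3.26 and 3.39, with the highest Calb2, Reln and Ndnf and the lowest Sst and Cort, and the other 10 lie between -2.23 and 0.52.

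The 9 genes differed in how unstressed WT libraries 1 and 2 compared with the remaining 10. The mean of the pair over the mean of the other 10 was 9.50 for Calb2, 3.32 for Reln and 2.29 for Ndnf. It was 1.06 for Npy and 1.05 for Lamp5, then 0.840 for Vip, 0.703 for Cck, 0.491 for Cort and 0.365 for Sst. The plot against the bulb score shows that Calb2 also tended to rise with the score among the other 10 libraries. It went from 12.4 CPM at a score of -1.71 to 60.6 CPM at 0.41, both in stressed WT. Unstressed WT library 3, at the highest score of these libraries (0.52), was at 47.4 CPM. Stressed KO library 1, at the lowest score of -2.23, was at 16.5 CPM. These are descriptions over libraries that differ in tissue composition, and no test of them is given. Cajal-Retzius cells, another source of reelin in layer 1, were looked for with 4 markers. These summed to at most 10.2 CPM in any library, and all 4 were highest in unstressed WT libraries 1 and 2, those with the most bulb markers. Trp73 had 2.79 and 3.74 CPM and Ebf3 3.27 and 3.89 CPM in that pair, and both had 1.53 CPM or less in the rest. Lhx1 had a count of 0 in 7 of the 12 libraries. The part of these cells in the level of Reln was not tested.

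Genes that mark lineages rather than classes gave calls only in the comparisons that use unstressed WT. Of 6 tested genes of the medial ganglionic lineage, 2 were higher after stress in WT and none lower (median 0.32), beside 9.71% of all genes called higher and 12.1% called lower. These were Lhx6 (0.92 ± 0.27, adjusted p = 0.0331) and Satb1 (0.74 ± 0.19, adjusted p = 0.0238), a chromatin organiser that somatostatin cells need to mature. Of 10 genes of the caudal lineage, none was higher and 5 lower (median -0.64). They were Adarb2 (-1.22 ± 0.24), Nr2f2 (-1.36 ± 0.30), the serotonin receptor gene Htr3a (-0.69 ± 0.13), the growth factor gene Igf1 (-1.33 ± 0.25) and Sp8 (-2.58 ± 0.74), a transcription factor also used by olfactory bulb interneurons. Of 12 genes shared by GABA neurons, 10 were lower (median -1.01), among them Gad1 (-1.21 ± 0.30), an enzyme of GABA synthesis, and Dlx2 (-2.22 ± 0.50), and Elavl2 was higher (0.49 ± 0.14). KO against WT without stress gave 2 higher and 0 lower of 6, 0 higher and 4 lower of 10, and 1 higher and 9 lower of 12, beside 11.2% of all genes called higher and 12.1% lower. Without unstressed WT libraries 1 and 2, no gene of the 3 lists passed in either comparison. The medians for stress in WT were then 0.0065, -0.49 and -0.20, with Lhx6 at 0.20 ± 0.12, Adarb2 at -0.54 ± 0.21 and Gad1 at -0.20 ± 0.23. The bulb markers given above fell in both comparisons, and what part they have in these lists was not tested. No gene of these 3 lists passed in the comparisons that leave out unstressed WT.

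Further markers of the same classes were counted in the same way, against the same shares of all genes (9.71% higher and 12.1% lower for stress in WT). Of 15 further genes used to split somatostatin cells, none was higher and 4 were lower after stress in WT (median -0.34). They were Nos1 (-0.70 ± 0.19), Myh8 (-1.41 ± 0.44), the stress peptide gene Crh (-0.74 ± 0.24) and the substance P receptor gene Tacr1 (-1.16 ± 0.38). The other 11 did not pass, and groups did not overlap for 2 with higher and 2 with lower levels. Of 12 further VIP and CCK cell genes, 3 were lower and none higher (Crispld2 at -2.06 ± 0.40, Serpinf1 and Mybpc1). Of 10 further neurogliaform genes, 2 were lower and none higher (Kit at -0.53 ± 0.07 and Pax6 at -1.76 ± 0.44). KO against WT without stress gave 0 higher and 3 lower of the somatostatin cell genes (Crh, Nxph1 and Penk), 2 and 3 of the VIP and CCK cell genes, and 2 and 2 of the neurogliaform genes, beside 11.2% and 12.1% of all genes. The higher ones were the glutamate transporter gene Slc17a8 (1.03 ± 0.26), the cannabinoid receptor gene Cnr1 (0.71 ± 0.21), Lsp1 (1.83 ± 0.40) and Fam19a1 (0.80 ± 0.25). None of these genes passed in the other comparisons, or in either of these without unstressed WT libraries 1 and 2, where Nos1 was at -0.40 ± 0.25 and Kit at -0.51 ± 0.10 with stress in WT.

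Among receptors and partners of the 9 products, 5 of 25 tested genes passed for stress in WT and 9 of 25 for KO against WT without stress, beside 21.9% and 23.2% of all genes. Of the 4 tested receptors of somatostatin and cortistatin, Sstr2 was higher after stress in WT (1.15 ± 0.31, adjusted p = 0.0271). It was at 4.06, 5.73 and 13.1 CPM in unstressed WT, and at 15.3 to 20.7 CPM in the other 9 libraries, the same low pair as for Sst. Sstr2 and Sstr1 were both higher in KO without stress (1.18 ± 0.31 and 0.87 ± 0.28). Of 3 receptors listed for VIP and related peptides, Adcyap1r1 (-0.54 ± 0.13) and Vipr2 (-2.62 ± 0.85) were lower after stress in WT. Both were lower in KO without stress. Vipr1 did not pass, but was higher after stress in WT without overlap. It was at 17.5, 22.8 and 34.2 CPM in unstressed WT and at 36.1, 34.3 and 37.9 CPM in stressed WT. None of 3 tested neuropeptide Y receptors passed in any comparison, nor did Cckbr, the brain receptor of cholecystokinin (0.28 ± 0.13 for stress in WT, adjusted p = 0.141). Of 6 genes of reelin signalling, the receptor gene Lrp8 was lower after stress in WT (-0.41 ± 0.09, adjusted p = 0.0166) and in KO without stress (-0.28 ± 0.09). The kinase gene Fyn was lower and the adaptor gene Crk higher in the latter alone (-0.37 ± 0.11 and 0.31 ± 0.07). Whether those effects differ between the comparisons was not tested. Of 8 genes that process and store peptides, Scg5 was higher in both (0.27 ± 0.08 and 0.40 ± 0.08) and Chga in KO without stress (0.41 ± 0.13). In the comparisons that leave out unstressed WT, and in the interaction, 0 genes of these lists passed with edgeR. The same held for stress in WT and for KO against WT without stress when unstressed WT libraries 1 and 2 were left out, with Sstr2 at 0.37 ± 0.18 and 0.40 ± 0.18.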

How the data were processed

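RNA of 12 libraries (4 groups of 3) was prepared with a strand-keeping kit, per the labels' protocols. The table deposited by the authors holds estimated counts by gene symbol, without scaling. The submitters' processing notes name mm10 (GRCm38) and, as tools, RSEM 1.3.1, STAR 2.7.9a, Trim Galore 0.6.6 and DESeq2 1.36.0. For the annotation, the strand setting and any filter, what was used is not given in the sources used here.

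Counts were rounded to whole numbers. Library totals ran from 15469590 to 31082240, and a count of 3, the limit that a count of 0 allows, was 0.0920 to 0.192 CPM (counting error only). The filterByExpr function of edgeR (minimum count 10, minimum total 15) kept 15199 of 24411 genes. Libraries were scaled with TMM factors, and log2 CPM used a prior count of 2. The stress contrasts within genotype, the genotype contrasts within stress level and the interaction were fitted in 1 edgeR quasi-likelihood model of 4 group means (8 residual degrees of freedom). Tests were two-sided. P-values were adjusted over the 15199 genes by the Benjamini-Hochberg method, with a threshold of 0.05. Errors of fold changes are standard errors of that fit, and 95% intervals use its degrees of freedom. An exact permutation test of 3 against 3 libraries cannot go below 0.1, so none is given. The scripts were tested on simulated data. Pairs of libraries within a group differed by a chi-square per degree of freedom of 4.93 to 71.2, so none was counted as a duplicate.

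Versions were edgeR 4.0.16, DESeq2 1.42.0 and limma 3.58.1 under R 4.3.3. Positions and exon lengths come from GENCODE mouse release M21 on GRCm38, and promoters from RefSeq (GRCm38.p6).

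The 9 members and the gene lists beside them were chosen with earlier results of these data known. Per list and comparison, genes with the 4 smallest p or past the threshold may be named, and per member the 3 tested genes (mean log2 CPM of at least 0) with the smallest root mean square difference in centred log2 CPM; the third gene for Ndnf is not reported here. Six3, Lhx1 and Uncx fall outside this rule and were picked after their values were seen, and Lbhd2 is named because it was not in the table. Alternatives were DESeq2 size factors, no filter, DESeq2, leaving out each library, a block for the replicate number, and a fit restricted to the groups compared. Added after seeing the data were fits without unstressed WT libraries 1 and 2, without stressed KO library 1 in the shared spread, and with the olfactory bulb score as covariate.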

Additional observations from a re-analysis of the deposited data

How the results depend on the processing

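Precision is limited by 3 libraries a group, and by the 2 unstressed WT libraries that stand apart in both comparisons that gave calls. With 5 of the 9 genes past the threshold for stress in WT and 3 for KO against WT without stress, only the groups compared in the fit gave 0 and 0, leaving out unstressed WT libraries 1 and 2 gave 0 and 0, and the bulb score as covariate gave 0 and 0. DESeq2 gave 6 and 5, and for the interaction 2. Leaving stressed KO library 1 out of the shared spread also gave 6 and 5. Leaving out 1 library at a time gave 0 to 6 for stress in WT, 1 to 6 for KO against WT without stress and 0 to 4 for the interaction, the 4 without unstressed WT library 3. DESeq2 size factors and no filter on low counts changed no count of the 9, but over all genes they called 198 and 143 for the interaction, against 0. For stress in KO and KO against WT after stress the count was 0 under every alternative run. Fits of fewer libraries have less to estimate the spread from. Without unstressed WT libraries 1 and 2, the differences of Sst, Calb2 and Reln were also smaller in size in the comparisons that gave calls. The SE of Sst and of Reln was smaller there too, not larger. The cause of the changes in calls was not tested.

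The replicate number as a block gave 5, 0, 4, 0 and 0 calls in the order stress in WT, stress in KO, KO against WT without and with stress, interaction. It added Ndnf for KO against WT without stress. The correlations of same-numbered libraries' deviations lay between -0.25 and 0.36, and in no comparison did every pair exceed 0.1. With libraries that stand apart in tissue markers, these correlations cannot settle whether the numbers pair the libraries. From library 1 to 3 the bulb score fell in stressed WT (0.41, -1.12, -1.71) and unstressed KO (0.44, -0.79, -1.51). It rose in stressed KO (-2.23, -0.76, 0.09), and was 3.26, 3.39 and 0.52 in unstressed WT.

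Of 648 alternative values of single genes, 40 had the opposite sign, 49 lost a call and 17 gained one. For the sign changes the cause was not tested. Under the block, Calb2 went to 0.24 for stress in KO and 0.30 for KO against WT after stress. With only the groups compared, Cck went to 0.000543 in the latter. Without unstressed WT libraries 1 and 2, Lamp5 went to -0.0098 for stress in WT, and the interactions of Vip and Lamp5 to 0.17 and 0.034. With the bulb score as covariate, Calb2 went to 0.16 and 0.24 with stress in WT and in KO, and to 0.096 and 0.17 for KO against WT without and with stress. Vip went to 0.0082 and Npy to -0.029 for stress in WT, and Sst to -0.018 for KO against WT after stress. Leaving out 1 library at a time gave, for stress in WT, -0.16 to 0.033 for Vip and -0.0045 to 0.20 for Npy. For stress in KO it gave -0.23 to 0.084 for Vip, -0.11 to 0.21 for Cck, -0.15 to 0.32 for Lamp5, -0.57 to 0.41 for Calb2 and -0.078 to 0.054 for Cort. For KO against WT after stress it gave -0.078 to 0.088 for Sst, -0.050 to 0.079 for Npy, -0.13 to 0.19 for Cck, -0.58 to 0.68 for Calb2, -0.20 to 0.059 for Reln and -0.10 to 0.34 for Ndnf. For the interaction it gave -0.16 to 0.15 for Vip and -0.28 to 0.19 for Lamp5. The calls for Sst, Calb2, Ndnf and Cort in WT held in 7, 7, 6 and 8 of 14 alternatives, and that for Reln in 9. In the comparison of KO with WT without stress, Reln held in 11 of 14, Calb2 in 7 and Sst in 6.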

Other observations

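Markers of other cell classes differed between the same libraries. The count of Sst per count of Pvalb, the marker of the interneuron class set aside here, lay between 6.36 and 10.7 in 11 libraries and was 14.4 in stressed KO library 1, the library with striatal genes. Oligodendrocyte markers summed to 2102 to 3583 CPM in stressed WT and to 1475 to 1729 CPM in unstressed WT. Of 15 markers of cortical excitatory neurons, 2 were higher and 1 lower after stress in WT, beside 9.71% and 12.1% of all genes. Their median was 0.38, and 0.07 without unstressed WT libraries 1 and 2. None of 7 microglia markers passed (median 0.10), beside 21.9% of all genes, and 3 of 8 astrocyte markers were lower. The astrocyte median was -0.34, and -0.08 without unstressed WT libraries 1 and 2.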
